A study of Mus musculus with 14 samples.

Results

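The genes described here act in triglyceride storage and fatty acid oxidation. They are 10 genes chosen by name, Dgat1, Dgat2, Plin2, Pnpla2, Slc27a3, Cpt1a, Cpt2, Acadvl, Acadl and Acadm, of 13414 genes listed for tumours and 11793 listed for cultured cells. The choice was made with earlier results of these data known, so ranks and shares set beside all genes are descriptions only. All 10 were listed in both tables and passed the filter on low counts in every comparison. Their mRNA was counted by a bulk form of MARS-seq, in which each library holds short tags from the 3′ ends of transcripts.

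The cells were 4T1, a mouse mammary carcinoma line derived from a BALB/c mouse, carrying a lentiviral, doxycycline-inducible hairpin RNA, and each line was a pool of transduced cells and not a clone. In shTAZ cells the hairpin targets Wwtr1, the gene of the transcriptional coactivator TAZ, and in shC cells it is a scrambled control. The groups were as follows. The shTAZ tumours (n = 4) and the shC tumours (n = 4) were taken from the mammary fat pad of female BALB/c mice, which were 8 weeks old in the study, ate chow with doxycycline and were sampled 6 weeks after injection. The shTAZ cells (n = 3) and the shC cells (n = 3) were cultures, which the methods of the study describe as given doxycycline for 48 h while their labels name no treatment. Hosts had a normal immune system, so a tumour library holds RNA of host cells too, and in such bulk RNA fewer cells of a type and less RNA per cell cannot be told apart. The tumour libraries are of separate tumours in the study, so their spread includes that between tumours. No source used here says whether the libraries of 1 cell line came from separate cultures, so p-values for cells measure the spread between these libraries, which may be technical.

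Fatty acids enter a cell with the help of transport proteins and are joined to coenzyme A. They are then either esterified to glycerol and stored as triglyceride in lipid droplets, or passed through the mitochondrial membrane as carnitine esters and shortened by beta-oxidation. Breast tumours grow beside adipocytes, which store triglyceride, and macrophages and tumour cells can hold lipid droplets as well. TAZ binds no DNA by itself and reaches its target genes mainly through TEAD factors.

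The total count was 1659736 to 3179767 in shTAZ tumours, 2282612 to 22364483 in shC tumours, 2243071 to 7959163 in shTAZ cells and 6820673 to 14815813 in shC cells, with the highest tumour total in shC tumour 1. Levels are given as CPM, counts per 1000000 of the TMM-normalised library size, within the table a library was deposited in unless stated otherwise. All 8 epithelial markers of 4T1 cells were listed in both tables, while 6 of 8 T cell markers were listed for tumours and 0 for cells. In 3 tumours there were genes of other tissues, namely epidermal keratinocyte genes in shTAZ tumours 3 and 4 (summed 3316 and 1546 CPM, against 9.92 to 21.0 CPM in the other tumours) and urothelium and smooth muscle genes in shC tumour 2 (4309.5 CPM, against 20.0 to 54.7 CPM in the other tumours).

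The hairpin sequence that defines the shTAZ groups is shown because all knockdown comparisons rest on it. It is printed in capitals because all 19 bases match, in antisense direction, the coding sequence in exon 3 of Wwtr1, at chr3:57501788-57501806 on the minus strand of GRCm38, and no other gene among the 141767 GENCODE vM21 transcripts searched.
shTAZ hairpin: GACGGGTGGAGGTTCACAT
Wwtr1 had 8.12, 10.5 and 6.02 CPM in shTAZ cells 1 to 3, against 40.6, 29.7 and 25.4 CPM in shC cells 1 to 3. The cultures of the 2 lines did not overlap, the log2 fold change was −2.11 (SE 0.32), and the edgeR quasi-likelihood test gave an adjusted p of 0.0351. This call was lost without the surrogate variable described below for cultures, and when any 1 culture other than shC cells 1 was left out. In tumours, Wwtr1 had 22.1, 13.4, 17.5 and 25.5 CPM in shTAZ tumours 1 to 4, against 59.9, 29.2, 43.1 and 27.5 CPM in shC tumours 1 to 4. The 2 groups of tumours did not overlap, but the log2 fold change of −1.03 (SE 0.30) did not pass the test over all genes (edgeR, adjusted p = 0.923).

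The first comparison asks whether these lipid genes differed between tumours with TAZ knocked down and control tumours. Slc27a3 and Dgat2 had the largest log2 fold changes of the 10 genes, with 2.09-fold and 2.24-fold higher fitted levels in shTAZ tumours, but neither passed the test over all genes. Levels of the oxidation genes Cpt1a and Acadl were lower on average in shTAZ tumours and overlapped with those of shC tumours. By the edgeR test none of the 10 genes passed an adjusted p of 0.05, which 0% of the 9196 genes tested did, and DESeq2 also called 0 of the 10. At an unadjusted p under 0.05, 2 of the 10 genes passed (Slc27a3 and Dgat2), against 3.98% of all genes tested. Of the 10, 5 had a log2 fold change above 0, with a median of −0.0088, against 48.5% and a median of −0.0096 over all genes.

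**Figure D1:**
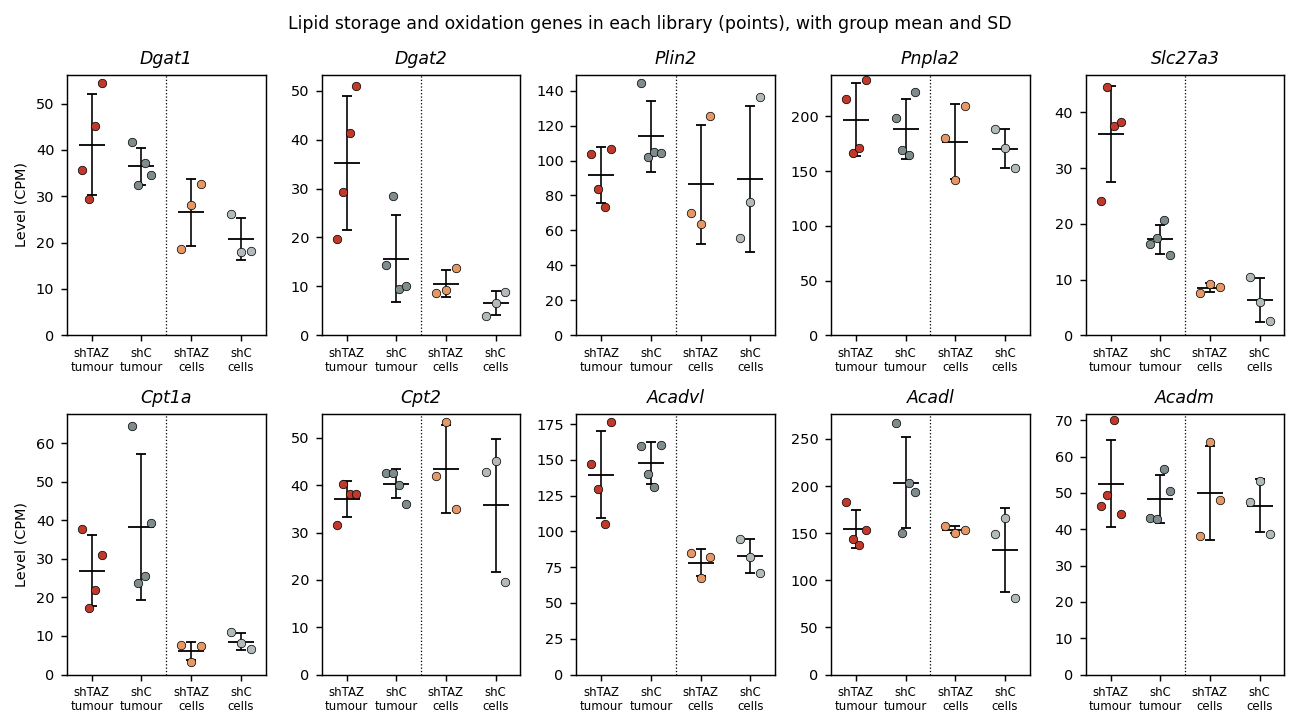
Level in CPM (linear axes) of each of the 10 genes in each library, with points for libraries, a bar for the group mean and whiskers for 1 SD; tumours and cells are scaled within their own table, on the 2 sides of the dotted line. Slc27a3 lay between 24.0 and 44.5 CPM in the 4 shTAZ tumours, above all 4 shC tumours (14.4 to 20.7 CPM), and Cpt1a was at 3.36 to 11.0 CPM in the 6 cultures.

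Slc27a3 encodes a member of the fatty acid transport protein family, which joins very long-chain fatty acids to coenzyme A. It had 24.0, 44.5, 37.6 and 38.2 CPM in shTAZ tumours 1 to 4, against 16.4, 17.4, 20.7 and 14.4 CPM in shC tumours 1 to 4. All 4 shTAZ tumours lay above all 4 shC tumours, which held for 1.4% of the genes tested in that direction. The group means were 36.1 ± 8.61 CPM in shTAZ tumours and 17.2 ± 2.61 CPM in shC tumours (SD, n = 4 each). The log2 fold change was 1.07 (SE 0.23, 95% interval 0.55 to 1.58), with the 5th smallest p of 9196 genes (0.000909 before and 0.923 after adjustment, edgeR). Since the genes were chosen with earlier results of these data known, this rank is a description only. The tumours' library codes carry 2 prefixes, FG and FM, with 2 tumours of each line under each, and the log2 ratio of the group means was 1.02 within FG and 1.11 within FM. Without the 3 tumours that held genes of other tissues the fitted log2 fold change was 0.98 (adjusted p = 0.998, edgeR). That refit kept shTAZ tumours of the FG prefix only, beside shC tumours of both prefixes, so prefix was no longer balanced between the lines.

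Dgat2, 1 of the 2 enzymes that add the last fatty acid of a triglyceride, had 19.6, 29.4, 41.3 and 51.0 CPM in shTAZ tumours 1 to 4, against 14.3, 28.5, 9.48 and 10.1 CPM in shC tumours 1 to 4. The groups overlapped, because shC tumour 2 lay above shTAZ tumour 1. The log2 fold change was 1.17 (SE 0.40, 95% interval 0.29 to 2.05), with an unadjusted p of 0.0142 and an adjusted p of 0.923 (edgeR). The log2 ratio of the group means was 0.19 within the FG libraries and 2.24 within the FM libraries, so the tumours of the FG prefix, which include shC tumour 2, differed less than those of the FM prefix, and this was not tested. The FM prefix holds shTAZ tumours 3 and 4, the libraries with keratinocyte genes and with the 2 highest Dgat2 levels. Without them and shC tumour 2 the log2 fold change was 1.06 (adjusted p = 0.998, edgeR), on the 2 remaining shTAZ and 3 remaining shC tumours. Both remaining shTAZ tumours carry the FG prefix, while shC tumours 3 and 4 carry FM. Line and prefix are thus not balanced in this refit, and their parts cannot be told apart. The part of either marker set in the Dgat2 levels was not tested.

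Adipocytes express much Dgat2 and Plin2, so their markers are given beside these genes. Of 10 adipocyte markers, 9 were listed for tumours (Lep was not), and their summed level was 68.9, 526, 95.8 and 85.8 CPM in shTAZ tumours 1 to 4, against 116, 621, 53.5 and 69.0 CPM in shC tumours 1 to 4. The sums were highest in shTAZ tumour 2 and shC tumour 2, 1 tumour of each line. Adipoq, the adipocyte hormone adiponectin, was at 19.7 and 29.9 CPM in these and at 0 to 2.50 CPM in the other tumours. In the other tumours Fabp4 was at 15.5 to 79.9 CPM, highest in shC tumour 1. Lipe, the only marker of this list also listed for cultures, averaged 43.9 CPM in shTAZ tumours and 41.0 CPM in shC tumours. Much of the sums of the other tumours came from Fabp4 and Lipe, so their differences need not reflect adipocytes. Skeletal muscle markers, another tissue rich in oxidation genes, were listed for 8 of 10 and summed to 15.0 to 42.4 CPM in shTAZ tumours and 12.8 to 311.6 CPM in shC tumours, highest in shC tumour 2. All 10 macrophage markers were listed, at 6350.5, 7089, 8322 and 9005 CPM in shTAZ tumours and 3874, 7029, 7348 and 4165 CPM in shC tumours, so the groups overlapped. Fitted levels were higher in shTAZ tumours for 8 of the 10 (median log2 fold change 0.37), none with an unadjusted p under 0.05 in edgeR. Of the 8 epithelial markers of 4T1 cells 7 were lower in shTAZ tumours (median −0.46), 2 with an unadjusted p under 0.05, and their sums were 4026 to 5171 CPM in shTAZ tumours and 3685 to 6306 CPM in shC tumours. All 5 fibroblast markers tested, of 8 listed, were lower too (median −0.24), with sums of 1437 to 4133 CPM in shTAZ tumours and 1384 to 4190.5 CPM in shC tumours, and none of the markers of these 3 lists passed the test over all genes. The part of these cells in the levels of Slc27a3, Dgat2, Plin2 and the oxidation genes was not tested.

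**Figure D2:**
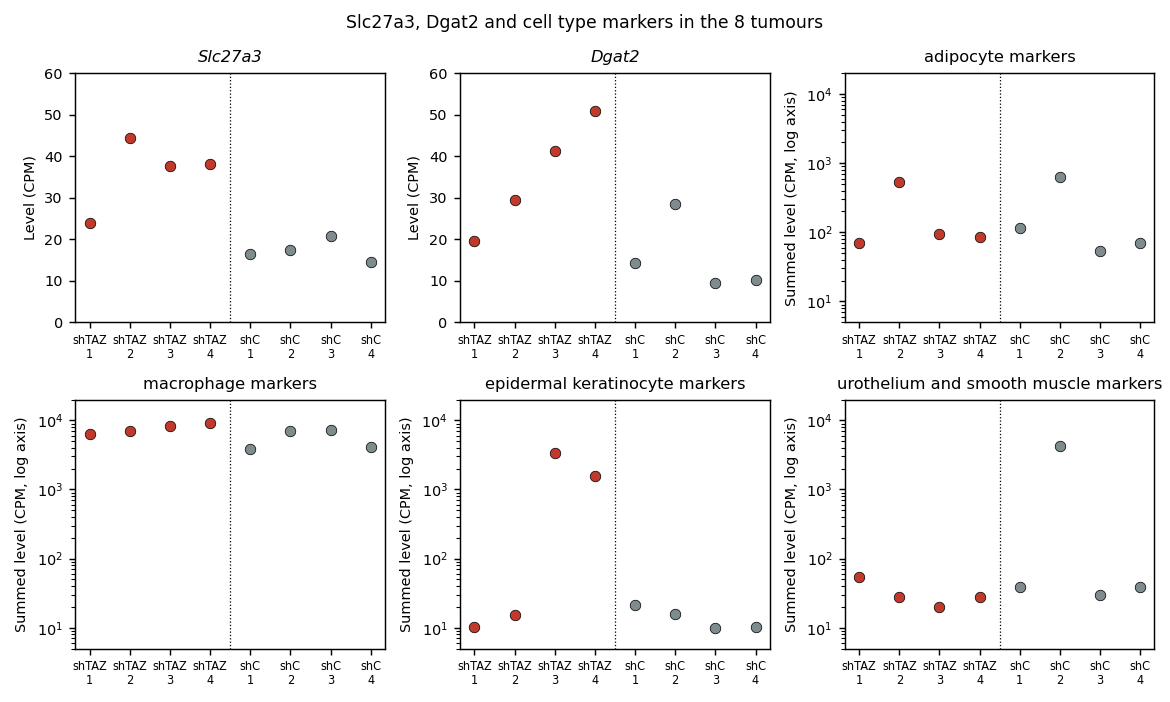
Levels of Slc27a3 and Dgat2 (CPM, linear axes) and summed levels of 4 marker lists (CPM, log axes) in each of the 8 tumours, with shTAZ tumours left of the dotted line and shC tumours right of it. Adipocyte markers were highest in shTAZ tumour 2 and shC tumour 2, and keratinocyte markers in shTAZ tumours 3 and 4, where Dgat2 was at 41.3 and 51.0 CPM.

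The other storage genes differed less between tumours. Dgat1, the second enzyme of the last step of triglyceride synthesis, had 35.7, 29.4, 45.1 and 54.4 CPM in shTAZ tumours 1 to 4, against 41.7, 32.4, 37.1 and 34.7 CPM in shC tumours 1 to 4. The shTAZ tumours included both the lowest and the highest value, and the log2 fold change was 0.16 (SE 0.21, 95% interval −0.31 to 0.64). Plin2, which coats lipid droplets, had 104, 83.5, 73.2 and 107 CPM in shTAZ tumours 1 to 4, against 144, 102, 105 and 104 CPM in shC tumours 1 to 4. The highest of all 8 values was that of shC tumour 1, and the log2 fold change of −0.31 (SE 0.18, 95% interval −0.71 to 0.086) was −0.16 without it. Pnpla2, the lipase that starts the breakdown of stored triglyceride, had 216, 166, 171 and 234 CPM in shTAZ tumours 1 to 4, against 198, 169, 165 and 223 CPM in shC tumours 1 to 4. Its ranges were nearly the same in both groups and its log2 fold change was 0.061 (SE 0.17, 95% interval −0.31 to 0.43).

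Cpt1a makes the carnitine esters by which long-chain fatty acids enter mitochondria, the step that limits their oxidation. It had 37.6, 17.2, 21.9 and 31.0 CPM in shTAZ tumours 1 to 4, against 64.5, 23.7, 25.4 and 39.4 CPM in shC tumours 1 to 4. The groups overlapped, with the highest value in shC tumour 1, and the log2 fold change of −0.52 (SE 0.36, 95% interval −1.31 to 0.27) was −0.11 without that tumour. Cpt2, which turns the esters back into coenzyme A esters inside mitochondria, had 31.6, 40.3, 38.2 and 38.2 CPM in shTAZ tumours 1 to 4, against 42.7, 42.5, 40.1 and 36.1 CPM in shC tumours 1 to 4. Its groups overlapped and its log2 fold change was −0.13 (SE 0.16, 95% interval −0.48 to 0.23).

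The 3 acyl-CoA dehydrogenases carry out the first oxidation step on fatty acids of very long, long and medium chains. Acadl, the long-chain enzyme, had 183, 144, 138 and 153 CPM in shTAZ tumours 1 to 4, against 267, 150.4, 203 and 194 CPM in shC tumours 1 to 4. Of the 4 shC tumours, 3 lay above all shTAZ tumours, and the log2 fold change was −0.40 (SE 0.19, 95% interval −0.81 to 0.011), with an unadjusted p of 0.0556 in edgeR, and −0.23 without shC tumour 1. Acadvl, the very long-chain enzyme, had 147, 129.6, 105 and 177 CPM in shTAZ tumours 1 to 4, against 159.6, 140.0, 131 and 160.0 CPM in shC tumours 1 to 4, which overlapped. Acadm, the medium-chain enzyme, had 46.5, 49.5, 70.1 and 44.2 CPM in shTAZ tumours 1 to 4, against 43.1, 42.8, 56.5 and 50.6 CPM in shC tumours 1 to 4, which overlapped too. Their log2 fold changes were −0.079 (SE 0.17, 95% interval −0.46 to 0.30) for Acadvl and 0.12 (SE 0.19, 95% interval −0.30 to 0.55) for Acadm.

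In the same tumours, 63 of 97 other genes of these pathways passed the filter on low counts, of which 36 had higher (against 48.5% of all genes tested) and 27 lower fitted levels in shTAZ tumours, with a median log2 fold change of 0.030. None passed the edgeR test, and 5 of the 63 had an unadjusted p under 0.05, against 3.98% of all genes. Of these, Abcd3, a peroxisomal fatty acid transporter, averaged 7.07 ± 1.09 CPM in shTAZ tumours and 13.9 ± 5.46 CPM in shC tumours (SD, n = 4 each). Acsl3 and Acsl6, which join long-chain fatty acids to coenzyme A, had log2 fold changes of −1.64 (SE 0.62) and −1.40 (SE 0.51). For Agpat4, an acyltransferase of glycerolipid synthesis, the log2 fold change was 0.45 (SE 0.18).

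The second comparison asks the same of the cells in culture, without host tissue. Of the 10 genes none passed the edgeR test, with an adjusted p of 0.05 reached by 0.0102% of the 9828 genes tested, which is Wwtr1 alone. DESeq2 also called 0 of the 10. At an unadjusted p under 0.05, 1 of the 10 passed (Dgat2), against 3.93% of all genes tested. Of the 10, 8 had a log2 fold change above 0, with a median of 0.16, against 48.9% and a median of −0.0090 over all genes. The model for cultures included 1 surrogate variable, since the study corrected its cultures with sva. Of 10 macrophage markers, 6 were listed for cells, and their summed level was 39.2, 50.4 and 31.1 CPM in shTAZ cells 1 to 3, against 25.2, 20.3 and 18.4 CPM in shC cells 1 to 3, which did not overlap. All 5 that were tested had higher fitted levels in shTAZ cells (median log2 fold change 0.69), 2 with an unadjusted p under 0.05 and 0 past the adjusted threshold in edgeR. Their part in the values below was not tested.

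Dgat2 had 8.60, 9.25 and 13.7 CPM in shTAZ cells 1 to 3, against 4.00, 6.61 and 8.90 CPM in shC cells 1 to 3. The highest shC culture lay above the lowest shTAZ culture, so the groups overlapped, but within each of the 3 culture numbers, which were taken as pairs, the shTAZ culture was the higher one. The levels rested on 18 to 132 counts per library. The log2 fold change was 0.90 (SE 0.39, 95% interval 0.070 to 1.73), with an unadjusted p of 0.0352 and an adjusted p of 1.00 (edgeR). It was 0.70 without the surrogate variable (unadjusted p = 0.138, edgeR) and 0.71 with the culture number as a block in its place (unadjusted p = 0.082, edgeR). Slc27a3 had 7.64, 9.25 and 8.74 CPM in shTAZ cells 1 to 3, against 10.4, 5.96 and 2.56 CPM in shC cells 1 to 3. The shTAZ cultures were close together and lay within the range of the shC cultures, with a log2 fold change of 0.46 (SE 0.45, 95% interval −0.50 to 1.41). Single cultures moved this value, which was 0.039 without shTAZ cells 3, 0.088 without shC cells 3 and 0.93 without shC cells 1.

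Plin2 had 70.2, 63.5 and 125 CPM in shTAZ cells 1 to 3, against 55.7, 76.0 and 136 CPM in shC cells 1 to 3. Culture 3 of either line was far above the other 2, so the spread between culture numbers exceeded the difference between lines, and the log2 fold change was 0.25 (SE 0.22, 95% interval −0.22 to 0.73). Its direction was not stable, since the group means were 86.3 ± 33.9 CPM in shTAZ cells and 89.3 ± 41.8 CPM in shC cells (SD, n = 3 each) and the log2 fold change was −0.042 without the surrogate variable and −0.021 with the replicate block. Dgat1 had 18.6, 28.2 and 32.7 CPM in shTAZ cells 1 to 3, against 26.1, 18.0 and 18.2 CPM in shC cells 1 to 3. The groups overlapped, and the log2 fold change was 0.40 (SE 0.30, 95% interval −0.23 to 1.03), or 0.27 to 0.75 with single cultures left out. Pnpla2 had 180.1, 142 and 209 CPM in shTAZ cells 1 to 3, against 188, 171 and 152 CPM in shC cells 1 to 3, with overlapping groups and a log2 fold change of 0.065 (SE 0.21, 95% interval −0.37 to 0.50).

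Cpt1a was low in culture, with 7.64, 3.36 and 7.44 CPM in shTAZ cells 1 to 3, against 11.0, 8.10 and 6.54 CPM in shC cells 1 to 3. The lowest value, in shTAZ cells 2, came from 8 counts, and the log2 fold change was −0.45 (SE 0.43, 95% interval −1.37 to 0.46). It was −1.48 without shTAZ cells 3, −0.21 without shTAZ cells 2 and −0.22 without shC cells 1, so single cultures decided its size. Cpt2 had 42.0, 53.4 and 35.0 CPM in shTAZ cells 1 to 3, against 42.7, 45.1 and 19.6 CPM in shC cells 1 to 3, and Acadl had 157, 150.0 and 154 CPM in shTAZ cells 1 to 3, against 149.5, 166 and 81.3 CPM in shC cells 1 to 3. For both genes shC cells 3 was far below the other 5 cultures. The log2 fold change was 0.16 (SE 0.27, 95% interval −0.41 to 0.72) for Cpt2 and 0.16 (SE 0.22, 95% interval −0.31 to 0.63) for Acadl.

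Acadvl was at 67.2 to 85.0 CPM in shTAZ cells and 71.1 to 95.0 CPM in shC cells, with a log2 fold change of −0.11 (SE 0.21). Acadm was at 38.2 to 63.9 CPM in shTAZ cells and 38.7 to 53.3 CPM in shC cells, with a log2 fold change of 0.082 (SE 0.25). Of the other pathway genes, 67 were tested, 42 with higher and 25 with lower fitted levels in shTAZ cells (median log2 fold change 0.075), where 48.9% of all genes were higher. None passed the edgeR test and 4 of the 67 had an unadjusted p under 0.05, against 3.93% of all genes. Acad10 and Acadsb, acyl-CoA dehydrogenase family genes, had log2 fold changes of 1.69 (SE 0.45) and 0.76 (SE 0.25). Fitm2, a lipid droplet formation protein, and Acsl5, which joins long-chain fatty acids to coenzyme A, had −1.86 (SE 0.62) and −0.55 (SE 0.25). Fitm2 averaged only 1.69 ± 0.36 CPM in shTAZ cells and 6.70 ± 3.31 CPM in shC cells (SD, n = 3 each). Acad10 averaged 10.4 ± 7.24 CPM in shTAZ cells and 3.62 ± 0.55 CPM in shC cells, so both sizes rest on low levels.

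**Figure D3:**
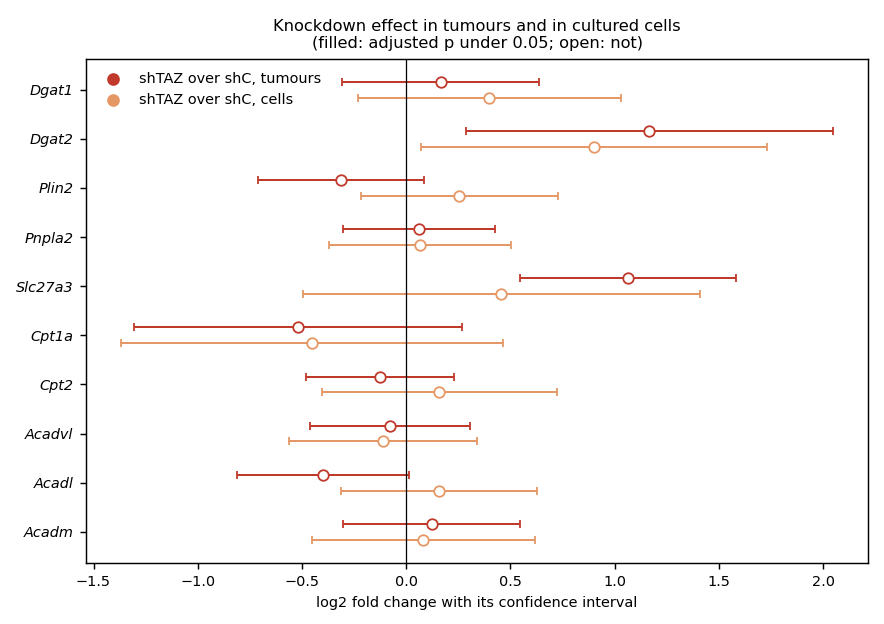
Log2 fold change of shTAZ over shC for each of the 10 genes in tumours (red, upper marker) and in cultured cells (orange, lower marker), with 95% intervals from the edgeR fits. All markers are open because no gene reached an adjusted p under 0.05; the intervals of Slc27a3 in tumours (0.55 to 1.58) and of Dgat2 in both settings lie above 0.

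Whether the knockdown effect differed between tumours and culture was tested as an interaction over all 14 libraries and the genes with the same symbol in both tables. This fit had no surrogate variable and no pairing of cultures. Its differences are therefore not exactly those between the effects given above for tumours and for cells. None of the 10 genes passed the edgeR test, as was so for 0% of the 9194 genes tested, and none had an unadjusted p under 0.05, against 2.47% of all genes. DESeq2 also called 0 of the 10. Acadl had the difference with the smallest p, −0.61 (SE 0.34, 95% interval −1.32 to 0.10) on the log2 scale (unadjusted p = 0.0896, edgeR). For Slc27a3 the difference was 0.60 (SE 0.53, 95% interval −0.51 to 1.72) and for Dgat2 0.48 (SE 0.60, 95% interval −0.79 to 1.75), so both intervals included 0. With single libraries left out, the difference ranged over 0.075 to 0.99 for Slc27a3, lowest without shC cells 1 and highest without shC cells 3. It ranged over 0.17 to 0.92 for Dgat2, lowest without shC cells 3 and highest without shC tumour 2, and over −0.79 to −0.36 for Acadl.

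The third comparison sets tumours against cultured cells of the same line, on levels normalised over all 14 libraries. In the shTAZ and shC lines, Cpt1a was 4.20-fold and 4.41-fold higher in tumours than in culture, and Slc27a3 4.09-fold and 2.69-fold. Dgat2 was 3.19-fold and 2.28-fold higher in these lines, and Acadvl 1.75-fold and 1.73-fold. Plin2, Pnpla2, Cpt2, Acadl and Acadm passed the test in neither line. In the shTAZ line 4 of the 10 genes rose in tumours by the edgeR test (adjusted p under 0.05), against 16.3% of the 9194 genes tested, and none fell, against 14.2%. In the shC line 5 of the 10 genes rose, against 20.8%, and none fell, against 17.6%. The median log2 fold change of the 10 was 0.35 in the shTAZ line and 0.67 in the shC line, against −0.052 and −0.0076 over all genes tested. Tumour and culture libraries were deposited in separate tables, so tumour growth, host cells and library set cannot be told apart. Some genes also carry different symbols for tumours and cells (Gpat4 is listed as Agpat6 for tumours), and the annotation version behind each is not given. A part of annotation in the differences of single genes cannot be told apart either, and was not tested. The comparisons also use the same libraries as the knockdown comparisons.

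Cpt1a had 38.7, 17.6, 22.4 and 32.1 CPM in shTAZ tumours, against 8.03, 3.53 and 7.88 CPM in shTAZ cells. In the shC line it had 66.2, 24.2, 25.9 and 40.5 CPM in tumours, against 11.6, 8.51 and 7.04 CPM in cells. In each line every tumour lay above every culture, as for 4 of the 10 genes in the shTAZ line, against 20% of all genes tested, and for 5 of the 10 in the shC line, against 23%. Its log2 fold change was 2.07 (SE 0.43) in the shTAZ line (adjusted p = 0.00192, edgeR) and 2.14 (SE 0.41) in the shC line (adjusted p = 0.000622, edgeR).

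Slc27a3 had 24.7, 45.4, 38.4 and 39.6 CPM in shTAZ tumours, against 8.03, 9.70 and 9.25 CPM in shTAZ cells. In the shC line it had 16.8, 17.8, 21.0 and 14.8 CPM in tumours, against 10.9, 6.26 and 2.76 CPM in cells. Tumours and cultures did not overlap in either line, and the order of the group means was shTAZ tumours, shC tumours, shTAZ cells and shC cells, with an overlap only between the last 2. The log2 fold change was 2.03 (SE 0.39) in the shTAZ line (adjusted p = 0.001, edgeR) and 1.43 (SE 0.38) in the shC line (adjusted p = 0.00689, edgeR).

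Dgat2 had 20.2, 30.0, 42.3 and 52.8 CPM in shTAZ tumours, against 9.03, 9.70 and 14.5 CPM in shTAZ cells. In the shC line it had 14.7, 29.2, 9.64 and 10.4 CPM in tumours, against 4.22, 6.95 and 9.58 CPM in cells. Tumours and cultures did not overlap, but the lowest shC tumour was only just above the highest shC culture. The log2 fold change was 1.67 (SE 0.44) in the shTAZ line (adjusted p = 0.00952, edgeR) and 1.19 (SE 0.43) in the shC line (adjusted p = 0.038, edgeR). Without the 3 tumours that held genes of other tissues neither call remained, with 1.14 (adjusted p = 0.0901) and 0.74 (adjusted p = 0.166, edgeR), and the call in the shC line was also lost without shC tumour 2 alone, which had the highest adipocyte marker sum, at 0.76 (adjusted p = 0.151, edgeR). It was lost as well without shC cells 1 (adjusted p = 0.136, edgeR) and without shC cells 2 (adjusted p = 0.0925, edgeR).

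Acadvl had 151, 132, 108 and 183 CPM in shTAZ tumours, against 89.3, 70.6 and 86.8 CPM in shTAZ cells. In the shC line it had 164, 143, 133 and 164 CPM in tumours, against 100.1, 86.3 and 76.6 CPM in cells. The settings did not overlap in either line, with log2 fold changes of 0.81 (SE 0.21) in the shTAZ line and 0.79 (SE 0.20) in the shC line (adjusted p = 0.00743 and 0.00588, edgeR). The calls for Cpt1a, Slc27a3 and Acadvl remained in both lines without the 3 tumours.

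Dgat1 passed the test in the shC line and not in the shTAZ line, with 42.8, 33.1, 37.7 and 35.6 CPM in tumours, against 27.5, 18.9 and 19.6 CPM in cells. Its log2 fold change there was 0.77 (SE 0.27, adjusted p = 0.0314, edgeR), and 0.58 in the shTAZ line (SE 0.27, adjusted p = 0.115, edgeR). The difference between the lines is the interaction contrast, −0.19 (SE 0.38), which did not pass the test. The call was lost without shC tumour 1, shC tumour 3, shC cells 2 or shC cells 3 (adjusted p = 0.0687, 0.0546, 0.116 and 0.0937, edgeR).

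The genes that passed in neither line had log2 fold changes of tumours over cells whose intervals included 0, except Acadl in the shC line. Plin2 had 0.044 (SE 0.31, 95% interval −0.60 to 0.69) in the shTAZ line and 0.29 (SE 0.30, 95% interval −0.35 to 0.94) in the shC line. Pnpla2 had 0.12 (SE 0.20, 95% interval −0.30 to 0.54) and 0.094 (SE 0.20, 95% interval −0.32 to 0.51) in these lines, and Acadm 0.029 (SE 0.23, 95% interval −0.47 to 0.53) and −0.0010 (SE 0.23, 95% interval −0.49 to 0.48). For these 3 genes all intervals included 0. Cpt2, which follows Cpt1a in the carnitine shuttle, had −0.26 (SE 0.27, 95% interval −0.82 to 0.30) and 0.13 (SE 0.26, 95% interval −0.42 to 0.68). Acadl had −0.026 (SE 0.24, 95% interval −0.53 to 0.48) in the shTAZ line and 0.58 (SE 0.24, 95% interval 0.074 to 1.08) in the shC line, where its adjusted p was 0.0652 (edgeR), and 0.0357 without shC tumour 2 or 0.0434 without shC cells 2.

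**Figure D4:**
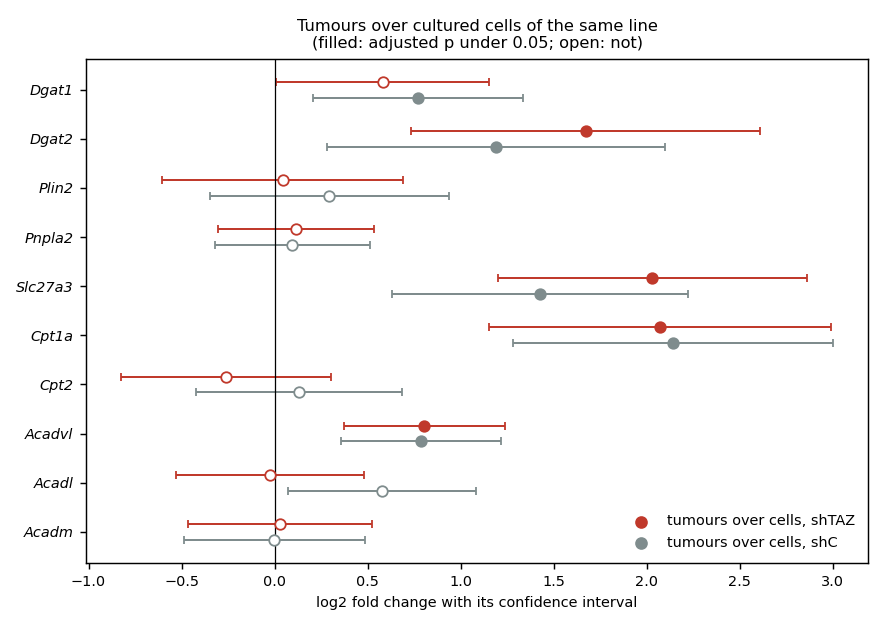
Log2 fold change of tumours over cultured cells for each of the 10 genes in the shTAZ line (red, upper marker) and the shC line (grey, lower marker), with 95% intervals, where filled markers have an adjusted p under 0.05 and open markers do not. Cpt1a, at 2.07 and 2.14, and Slc27a3, at 2.03 and 1.43, had the largest differences in the shTAZ and shC lines.

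Markers of host cells also differed between tumours and cultures. In cultures only 1 of 10 adipocyte markers was listed (Lipe, a lipase that is also made outside adipocytes), no T cell marker was, and the 6 listed macrophage markers summed to 31.1 to 50.4 CPM in shTAZ cells and 18.4 to 25.2 CPM in shC cells, while all 10 were listed in tumours. The part of host cells in the levels of Cpt1a, Slc27a3, Dgat2, Acadvl and Dgat1 was not tested.

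The other pathway genes are given for the same contrast. Of 65 tested, 14 rose and 6 fell in shTAZ tumours relative to shTAZ cells, against 16.3% and 14.2% of all genes tested. In shC tumours 13 rose and 6 fell relative to shC cells, against 20.8% and 17.6%, so the share that rose was near that over all genes. In the shTAZ and shC lines the genes had median log2 fold changes of 0.24 and 0.43, against −0.052 and −0.0076 over all genes tested. Lipid droplet genes that rose in both lines were Bscl2 (seipin, a droplet assembly protein), with log2 fold changes of 2.24 and 1.65 in the shTAZ and shC lines, and Hsd17b11 (a dehydrogenase of the droplet surface), with 2.31 and 2.68. Mgll, which cleaves the last fatty acid of a triglyceride, averaged 14.3 ± 3.07 CPM in shTAZ tumours and 1.11 ± 0.185 CPM in shTAZ cells, with 3.69 and 3.28 in the 2 lines. Slc25a20, the carrier that takes carnitine esters across the inner mitochondrial membrane between Cpt1a and Cpt2, rose with 1.52 and 1.33. Acox3, a peroxisomal acyl-CoA oxidase, rose with 2.77 and 3.02, and Angptl4, a secreted lipase inhibitor and known PPAR target, with 3.44 and 5.90. Angptl4 was near the floor in culture, at 0.671 ± 0.793 CPM (SD) in shC cells on the scale of the cultures. Genes of fatty acid activation and early glycerolipid synthesis were among those that fell, with Acsl5 at −1.76 and −1.68, Slc27a1 (a fatty acid transport protein related to Slc27a3) at −1.95 and −2.25, and Gpam (the first acyltransferase of triglyceride synthesis) at −3.65 and −5.13. Mgll did not pass the filter on low counts in cultures alone, and Gpam did not in tumours alone. The sizes for Mgll, Gpam and Angptl4 thus rest on few counts in the setting where each was lower.

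Over all 14 libraries, the genes whose centred log2 CPM lay closest to that of Cpt1a, among 9194, were Mylip, Foxo1 and Pgm2, with a mean absolute difference of 0.31, 0.31 and 0.32. For Plin2 they were Emc7, Usp30 and Ap3d1, with 0.11, 0.14 and 0.15. These are descriptions over libraries that share their setting and depth.

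The bases before the start of 3 genes that rose in tumours of both lines are printed so that the binding sequences of 2 factor families can be seen in place. The set of RefSeq promoters (GRCm38.p6) used here had an entry for 8 of the 10 genes, all but Dgat1 and Dgat2. Each run is the 250 bases before the RefSeq start, in the direction of the gene, in lower case with matches in capitals. The motifs, searched on both strands, were GGAATG, the core bound by TEAD factors, and AGGTCA, the unit bound by nuclear receptors such as PPARs, and they do not overlap each other here.
Cpt1a (chr19:3323051-3323300, plus strand): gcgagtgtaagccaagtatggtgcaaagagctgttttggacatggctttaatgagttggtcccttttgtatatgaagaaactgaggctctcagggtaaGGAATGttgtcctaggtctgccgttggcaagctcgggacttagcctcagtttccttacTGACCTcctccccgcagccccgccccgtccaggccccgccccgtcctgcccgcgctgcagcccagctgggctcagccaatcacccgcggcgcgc
Slc27a3 (chr3:90389939-90390188, minus strand): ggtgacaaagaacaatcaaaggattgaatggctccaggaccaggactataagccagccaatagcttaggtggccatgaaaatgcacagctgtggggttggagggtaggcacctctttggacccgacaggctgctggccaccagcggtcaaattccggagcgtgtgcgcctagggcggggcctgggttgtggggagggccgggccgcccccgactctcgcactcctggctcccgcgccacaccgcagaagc
Acadvl (chr11:70015429-70015678, minus strand): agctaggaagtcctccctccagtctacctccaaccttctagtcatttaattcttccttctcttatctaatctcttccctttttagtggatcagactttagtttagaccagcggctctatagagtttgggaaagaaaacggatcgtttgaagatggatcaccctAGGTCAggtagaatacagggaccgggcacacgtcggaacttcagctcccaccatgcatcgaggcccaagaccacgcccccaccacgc
Cpt1a held GGAATG once, beginning 152 bases before the start, and the reverse complement of AGGTCA once, beginning 94 bases before it. Acadvl held AGGTCA once, beginning 87 bases before the start, and Slc27a3 held neither motif. Of the 8 genes, 1 held GGAATG (Cpt1a) and 4 held AGGTCA (Plin2, Cpt1a, Acadvl and Acadm), against 12.6% and 14% of 32817 promoter windows of the same length. None of the 8 held the direct repeat AGGTCANAGGTCA, found in 0.0335% of all windows. In GENCODE vM21 the Cpt1a gene begins at position 3322334, before the RefSeq start, so its window lies inside the longer gene model. A match describes these letters only, and no binding was measured.

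In GENCODE vM21 (GRCm38) no other gene overlaps Dgat1, Dgat2, Plin2, Pnpla2, Slc27a3, Cpt1a, Cpt2 or Acadm. Acadvl, at chr11:70010183-70015411, overlaps Dvl2 and Mir324 on the opposite strand, and Acadl, at chr1:66830839-66863277, overlaps Gm15793 on the same strand and Gm27934 on the opposite strand. The strand setting of the counting is not given in the sources used here, so reads of Acadvl and Dvl2 may not be separable where the 2 genes overlap.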

How the data were processed

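Bulk 3′ MARS-seq libraries of 8 tumours and 6 cultures were used, grouped by their names in the labels. TAZ-KO and WT clones were not analysed here. Reads were trimmed with cutadapt, mapped to GRCm38 with STAR and counted with HTSeq by the authors, who deposited raw counts per gene in 1 table for tumours and 1 for cells, each listing genes with a total of at least 6. Normalised values, fold changes and p-values of the authors in these tables were not used.

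Counts were analysed in R 4.3.3 with edgeR 4.0.16: filterByExpr, TMM and the quasi-likelihood F test, with Benjamini-Hochberg adjustment over all genes tested (threshold 0.05). For cells the model had 1 surrogate variable from svaseq (sva 3.50.0). SE is the absolute log2 fold change over the square root of F, and 95% intervals use the fit's degrees of freedom. The interaction and the tumour-over-culture contrasts used genes whose symbol is in both tables, with no surrogate variable. On simulated counts, edgeR called 32 of 95 genes changed by 1 log2 unit and 83 of 95 changed by 2 for tumours (8971 genes), and 3 of 99 and 59 of 96 for cells (9640 genes). These counts were drawn once per comparison, with planted changes and no effect of culture number, while the fit for cells kept its surrogate variable. The rates may thus differ from those in the real libraries. The totals, 1659736 to 22364483, limit precision most for low genes.

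Numbers were taken to pair the cultures, since same-numbered cultures deviated together from their group means (r over genes 0.31, 0.18 and 0.60) and share a code prefix in the labels. However, culture 2 of the shTAZ line was closer to culture 1 of the shC line (0.22). Alternatives were DESeq2 1.42.0, RLE size factors, other filters, a replicate block, a prefix term, another number of surrogate variables and leaving out libraries. All 10 genes are named. Members and lists were chosen with earlier results of these data known, and other genes named are from those lists.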

Additional observations from a re-analysis of the deposited data

Results flagged for a closer look

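Plin2 in shC tumour 1, at 144 CPM, stood apart from the other 3 shC tumours, which were at 102.0 to 104.8 CPM. On the log2 scale, its gap to the nearest of them was 0.923 of the group's whole range. That was 1 of 20 groups of 4 tumours examined, and chance alone gives about 1 in 20. The library is also the deepest of the tumours, with 22364483 counts, and held the highest Cpt1a level and the highest Acadl level (64.5 and 267 CPM).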

How the results depend on the processing

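No alternative changed the count of the 10 genes past the threshold by over 1.5 times, and the calls of Cpt1a, Slc27a3 and Acadvl in tumours over cells remained in all of theirs. For Slc27a3 in shTAZ over shC tumours, 16 alternatives gave 0.94 to 1.22 on the log2 scale, with an adjusted p of at least 0.0892 (DESeq2), and for Dgat2 0.92 to 1.58. Over all genes, shTAZ against shC tumours gave 4 calls with DESeq2, against 0. In cells the 1 call became 5 with DESeq2, 3 with no filter, 4 with at least 10 counts in every library, 6 with the replicate block, 0 without the surrogate variable, and 0 to 1 with single cultures left out. In shTAZ tumours over shTAZ cells, 2807 calls became 1858 with at least 10 counts in every library and 1469 without the 3 tumours that held genes of other tissues, a setting chosen after seeing the data. Fitted directions near 0 turned, and the cause was not tested. Without these 3 tumours, which leaves the code prefix unbalanced between the lines, shTAZ over shC tumours gave −0.24 for Dgat1, −0.045 for Pnpla2 and −0.070 for Acadm. The interaction gave −0.062 for Pnpla2, −0.013 for Acadvl and −0.13 for Acadm, and tumours over cells 0.047 for Acadl and −0.10 for Acadm in the shTAZ line and 0.031 for Acadm in the shC line. Acadm in the shC line was also 0.0035 with DESeq2, 0.0070 with RLE size factors and 0.012 with at least 10 counts in every library. Plin2 in cells was −0.042 without the surrogate variable and −0.021 with the replicate block, and the block gave −0.0046 for Acadvl in the interaction. The block changed no call among the 10 genes. In tumours, same-numbered libraries correlated at 0.22, 0.12, 0.32 and −0.011, so their numbers were not taken as pairs, and not every tumour correlated best with its own number. With single libraries left out, values that turned ranged over −0.012 to 0.29 for Dgat1, −0.042 to 0.15 for Pnpla2, −0.22 to 0.029 for Acadvl and −0.047 to 0.20 for Acadm in tumours. They ranged over −0.35 to 0.20 for Pnpla2, −0.033 to 0.33 for Cpt2, −0.41 to 0.0094 for Acadvl, −0.068 to 0.34 for Acadl and −0.10 to 0.33 for Acadm in cells, and −0.38 to 0.0092 for Dgat1, −0.71 to 0.14 for Plin2, −0.11 to 0.17 for Pnpla2, −0.33 to 0.32 for Cpt1a, −0.12 to 0.15 for Acadvl and −0.12 to 0.24 for Acadm in the interaction. In tumours over cells they ranged over −0.13 to 0.43 for Plin2, −0.018 to 0.26 for Pnpla2, −0.12 to 0.022 for Acadl and −0.14 to 0.24 for Acadm in the shTAZ line and −0.16 to 0.32 for Cpt2 and −0.11 to 0.10 for Acadm in the shC line. Cpt1a was not tested with at least 10 counts in every library where cells entered, since 1 culture held 8. Depth limits the low genes most, Cpt1a, Dgat2 and Slc27a3 in cells, which had 8 to 132 counts per library.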
